A study of Rattus norvegicus with 30 samples.

Results

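The extracellular matrix genes of the rat oesophageal epithelium were examined as a set of collagens, basement membrane components, proteoglycans, lysyl oxidases, elastic fibre genes, matrix glycoproteins and fibroblast receptors or markers. The set was a list of 40 gene symbols, and for each symbol the probe set with the highest mean over all arrays was used. Of the 40, 39 were measured among 14217 genes, since no probe set was named for Thbs1. The 39 comprised 5 fibrillar collagens, 5 other interstitial collagens, 8 basement membrane genes, 4 proteoglycans, 3 lysyl oxidases, 5 elastic fibre genes, 5 matrix glycoproteins and 4 fibroblast receptors or markers. In rats with an intact miR-31 gene, zinc deficiency raised 1 of the 39, Lox, where 13.9% of all genes passed the test in either direction, and no collagen passed. In miR-31 knockout rats 15 of the 39 fell on the deficient diet, where 12.0% of all genes fell, and Lox was not called. Without a single zinc-sufficient array that count was 4, where 6.56% of all genes fell.

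Oesophageal epithelium was taken from 30 male Sprague-Dawley rats and its RNA hybridised to 1 Affymetrix array per rat. All rats were in a tumour protocol with N-nitrosomethylbenzylamine (NMBA), an oesophageal carcinogen, given in 4 intragastric doses of 2 mg/kg from week 5. Unedited rats, placed on their diet at 4 weeks of age, formed 4 groups of 5. These were zinc-sufficient and pair-fed without antimiR (ZS untreated, arrays 16 to 20), zinc-deficient and fed ad libitum without antimiR (ZD untreated, arrays 11 to 15), zinc-deficient with antimiR-31 over the first 5 weeks (ZD antimiR 5 weeks, arrays 6 to 10), and zinc-deficient with antimiR-31 for 20 weeks (ZD antimiR 20 weeks, arrays 1 to 5). AntimiR-31 is a locked nucleic acid oligonucleotide against miR-31, given by tail vein, first at 20 mg/kg and then in 9 doses of 6 mg/kg, with 20 further doses in the 20-week group. Tissue was taken 48 h after the last antimiR dose or 15 weeks after the first NMBA dose, and the labels do not say which applied to the 5-week group. Rats with a constitutive CRISPR/Cas9 deletion of miR-31 formed a separate experiment with 4 zinc-sufficient (ZS knockout, arrays 30 to 33) and 6 zinc-deficient animals (ZD knockout, arrays 34 to 39). Littermates with an intact gene were not analysed here, so genotype cannot be told apart from experiment, and knockout and unedited rats were compared only through the difference between their diet effects.

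Fibrillar collagens form the tensile fibres beneath an epithelium, and their chains are hydroxylated and folded inside fibroblasts before export. Lysyl oxidases then cross-link collagen and elastin outside the cell, while type IV collagen, laminins and nidogen make the sheet on which basal keratinocytes and vessels rest. Decorin, lumican and biglycan are small leucine-rich proteoglycans that bind collagen fibrils. In squamous oesophagus these genes are made mainly by the fibroblasts, vessels and muscle layers under the keratinocytes.

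The sequences below show the microRNA that the antimiR and the knockout remove, and the promoters of 3 collagens whose expression fell in knockout rats. In the microRNA, RefSeq assembly GRCr8, chr5:108714906-108714927 on the minus strand, capitals mark the seed at bases 2 to 8. In each promoter, from 250 bases before to 50 bases after the start on the plus strand of GRCr8, capitals mark the letters CCAAT on either strand (ATTGG on the other) or TATAAA on either strand (TTTATA on the other). The windows were chr16:84885347-84885646 for Col4a1, chr4:33518307-33518606 for Col1a2 and chr3:31606630-31606929 for Col5a1.
rno-miR-31a-5p: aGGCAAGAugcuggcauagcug
Col4a1 promoter: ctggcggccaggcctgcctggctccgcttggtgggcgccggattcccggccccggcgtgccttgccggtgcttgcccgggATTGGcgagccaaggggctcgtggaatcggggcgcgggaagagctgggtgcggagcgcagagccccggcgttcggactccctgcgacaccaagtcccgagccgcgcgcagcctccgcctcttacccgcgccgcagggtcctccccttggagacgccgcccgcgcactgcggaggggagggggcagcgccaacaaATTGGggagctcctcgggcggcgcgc
Col1a2 promoter: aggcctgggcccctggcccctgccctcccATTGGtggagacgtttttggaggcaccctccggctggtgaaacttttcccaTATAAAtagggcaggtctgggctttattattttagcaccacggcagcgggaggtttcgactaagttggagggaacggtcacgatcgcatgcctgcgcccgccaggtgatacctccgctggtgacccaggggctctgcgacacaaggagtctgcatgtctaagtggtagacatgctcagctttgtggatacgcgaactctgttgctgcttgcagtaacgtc
Col5a1 promoter: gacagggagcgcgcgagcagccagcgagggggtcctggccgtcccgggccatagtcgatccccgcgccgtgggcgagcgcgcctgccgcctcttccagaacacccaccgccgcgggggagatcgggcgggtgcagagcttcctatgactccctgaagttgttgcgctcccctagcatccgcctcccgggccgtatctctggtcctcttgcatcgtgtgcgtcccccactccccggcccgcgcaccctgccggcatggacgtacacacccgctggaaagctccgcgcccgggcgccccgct
Promoters were found in the RefSeq table for 25 of the 39 genes. CCAAT occurred in 11 of those 25 and in 37.5% of all 33469 promoters of this length, and TATAAA in 4 of 25 (Col1a2, Postn, Tnc and Vim) and in 14.2%. The Col4a1 window held CCAAT on the opposite strand 170 bases before the start and again 24 bases after it. The Col1a2 window held CCAAT on the opposite strand 221 bases before the start and TATAAA 170 bases before it, and the Col5a1 window held neither run of letters. Col4a1 and Col4a2, which encode the common chains of type IV collagen, start 77 bases apart and are read away from each other, so that their windows overlap by 176 bases.

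Values are log2 expression values from the RMA method, so a difference of 1 is a doubling, and a gene is said to be called, or to rise or fall, where its adjusted p was under 0.05. The epithelial keratins Krt5, Krt14, Krt15, Krt4 and Krt13 were at or above the 98.1 percentile of genes on each array, and Krt1, a keratin of cornifying cells, ranged from the 56.9 to the 99.6 percentile. The fibroblast gene Dcn was at or above the 91.2 percentile on each array, Lum the 92.7 and Col3a1 the 85.8, so the labelled epithelium held stromal RNA on all 30 arrays. The adipocyte marker Adipoq was at or below the 20.2 percentile. In whole tissue, fewer cells of a type and less RNA per cell cannot be told apart.

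Some arrays stood apart for the whole set. ZS knockout array 32 had the highest value of its group for all 39 genes, with a mean over the genes of 9.55, against 8.10, 8.60 and 8.56 on arrays 30, 31 and 33. The same array was also highest of its group for the macrophage list, at a mean of 8.63 against 6.62 to 7.51 on the other 3, and for the endothelial list, at 8.25 against 7.42 to 7.49. In the ZD knockout group array 36 was highest for 31 genes and array 39 lowest for 30. In the ZD antimiR 20 weeks group array 2 was lowest for 31 genes, and in the 5-week group array 9 was highest for 26. The heat map of all arrays shows these as columns of 1 colour. Knockout calls of the probe sets used are therefore followed by what they were without array 32, except for marker lists in which only 1 gene was called. Second probe sets were fitted only with all arrays.

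**Figure D1:**
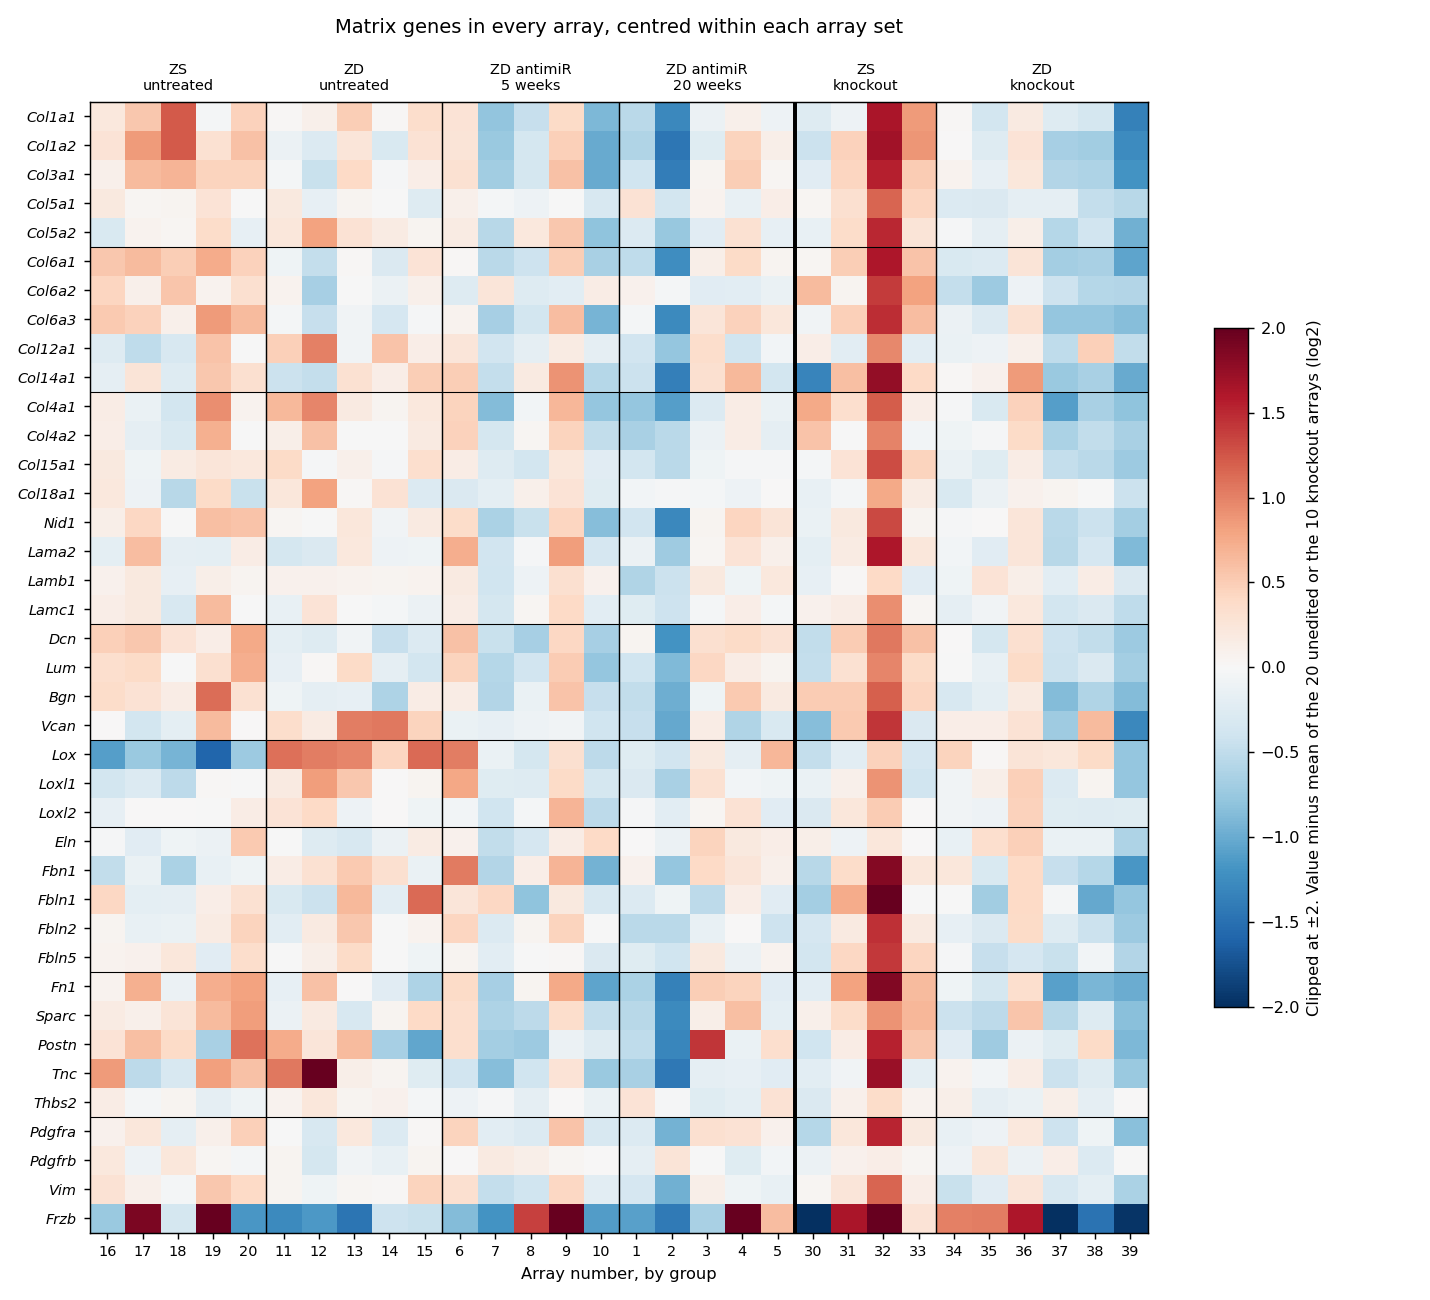
Each cell is the log2 value of 1 of 39 matrix genes (rows) on 1 of 30 arrays (columns, by group), minus that gene's mean over the 20 unedited or the 10 knockout arrays; red is above and blue below that mean, and the colour scale is clipped at 2 log2 units. ZS knockout array 32 is the highest of its group in all 39 genes, and ZD antimiR 20 weeks array 2 the lowest of its group in 31.

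Lox (chr18:48162889-48175640 in GRCr8), the enzyme that oxidises lysines in collagen and elastin so that fibres cross-link, rose on the deficient diet in unedited rats. ZS untreated values were 4.29, 4.64, 4.46, 3.81 and 4.67, and ZD untreated values were 6.49, 6.41, 6.37, 5.82 and 6.52. The groups did not overlap, and every ZD rat lay more than 1 log2 unit above every ZS rat. The rise was 1.95 log2 units (SE 0.26, 95% interval 1.40 to 2.49), or 3.85-fold, with an adjusted p of 8.04e-05 by limma with Benjamini-Hochberg adjustment over all genes. No other of the 39 genes was called in either direction, where 13.9% of all genes tested were called (6.94% higher). Loxl1, a lysyl oxidase linked to elastin, had a mean of 6.61 ± 0.23 (SD, n = 5) in ZS and 7.16 ± 0.36 (SD, n = 5) in ZD untreated rats. The groups overlapped by a small margin, and the difference of 0.56 (95% interval 0.05 to 1.06) was not called, with an adjusted p of 0.138 by limma. Loxl2, which acts on type IV and fibrillar collagen, had low signal, at 3.49 to 4.05 in these groups, and its difference was 0.09 (95% interval -0.27 to 0.46).

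With antimiR-31, the Lox group means lay between those of ZS and untreated ZD rats. The 5-week rats had 6.42, 5.26, 5.03, 5.71 and 4.87, and the 20-week rats had 5.15, 5.01, 5.59, 5.21 and 6.05. All 10 lay above the highest ZS value, where 8.23% and 6.0% of genes did not overlap with ZS at 5 and 20 weeks, and 8 of the 10 lay below the lowest ZD value. Against ZS the 5-week group was 1.08 higher (SE 0.26, adjusted p = 0.0104 by limma) and the 20-week group 1.03 higher (SE 0.26, adjusted p = 0.029 by limma). Lox was again the only member called against ZS, where 9.08% of all genes were called at 5 weeks and 3.63% at 20 weeks. The 5-week call held without any single array, and the 20-week call was lost without antimiR array 1, 3 or 5 or ZS array 16, 18 or 19, and with only the groups compared in the fit, with differences of 0.86 to 1.12 over the fits that left out 1 array. Against untreated ZD the difference was -0.86 at 5 weeks (95% interval -1.41 to -0.32, adjusted p = 0.49 by limma) and -0.92 at 20 weeks (95% interval -1.46 to -0.38, adjusted p = 0.0924 by limma), and neither was called. Among unedited groups in order of mean level, ZS was lowest at 4.38 ± 0.35 (SD, n = 5), the 20-week and 5-week antimiR groups stood at 5.40 ± 0.42 (SD, n = 5) and 5.46 ± 0.62 (SD, n = 5) with overlapping ranges, and ZD untreated was highest at 6.32 ± 0.29 (SD, n = 5).

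In knockout rats Lox did not separate by diet. ZS knockout values were 5.22, 5.48, 6.15 and 5.36, and ZD knockout values had a lowest of 4.91, a median of 5.93 and a highest of 6.13. The ranges overlapped, with the top value in the ZS group (array 32) and the lowest in the ZD group. The difference was 0.23 (SE 0.27, 95% interval -0.33 to 0.78, adjusted p = 0.595 by limma), and 0.43 without array 32. The diet effect was 1.72 log2 units smaller than in unedited rats (interaction -1.72, SE 0.38, adjusted p = 0.0067 by limma), and the interaction was called in all 20 fits that left out 1 array, at -1.84 to -1.52. The mean of the 10 knockout rats was not set against unedited rats by a test, because the array sets differed in overall median (5.37 to 5.45 against 5.81 to 5.93). A second Lox probe set gave 1.46 (SE 0.22) for diet in unedited rats, 0.32 (SE 0.22) in knockout rats and -1.15 (SE 0.31) for their difference, with the first and last called (adjusted p = 0.000119 and 0.0223 by limma over all probe sets). Loxl1 and Loxl2 were at -0.20 and -0.19 in knockout rats, neither called, and their interactions of -0.75 and -0.28 were not called either (adjusted p = 0.197 and 0.549 by limma).

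**Figure D2:**
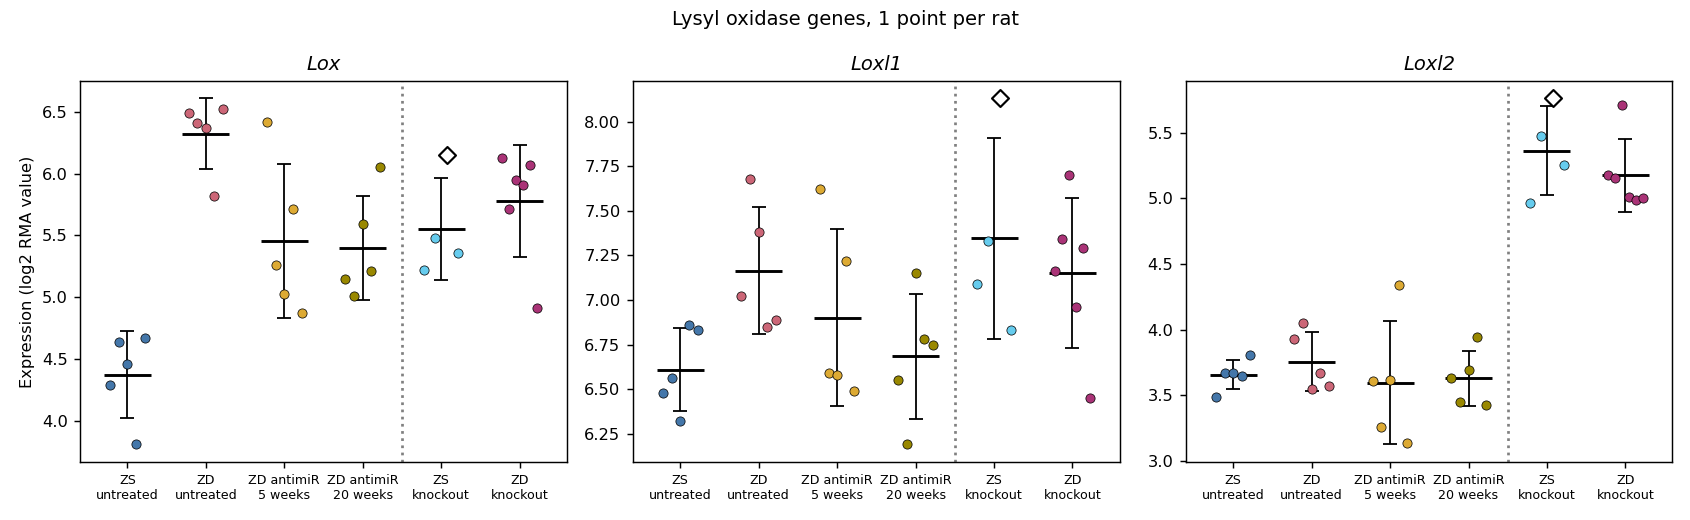
Log2 RMA values (vertical axis) of Lox, Loxl1 and Loxl2 in the 6 groups, 1 point per rat, with group mean and SD; the dotted line separates the 2 array sets and the open diamond is ZS knockout array 32. Lox lies at 3.81 to 4.67 in ZS and 5.82 to 6.52 in ZD untreated rats, and the 2 knockout groups overlap at 4.91 to 6.15.

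Of 5 fibrillar collagens, 4 fell in knockout rats on the deficient diet and none was called in unedited rats, in the fit of all arrays. With only the groups compared in the fit, Col5a1 alone of those 4 was called in knockout rats, and Col1a2 was called in unedited rats. In the knockout comparison 15 of the 39 members were called, all lower, where 12.0% of all genes were called lower (13 members and 8.15% of genes with median centring) and 21.4% in either direction. The 15 included 4 of 5 fibrillar collagens, 3 of 5 other interstitial collagens, 3 of 8 basement membrane genes and 5 of the remaining 21. The median difference of the 39 was -0.69, against 0.01 for all genes, and 38 of 39 lay below 0, against 49.0% of all genes. Without array 32, 4 were called, Bgn, Col15a1, Col5a1 and Col6a2, where 6.56% of all genes were called lower, and the median was -0.36. Without ZD knockout array 37 or 39 the count was 8 in each case, where 10.3% and 9.36% of genes were called lower. Without ZS knockout array 30 it was 22, but the share of all genes in that fit is not given here, so that count stands without a background.

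Markers of some other cell types under the epithelium also differed by diet, while other lists were near the share of all genes. The smooth muscle list averaged 9.00 to 10.38 on ZS and 7.23 to 8.35 on ZD arrays of unedited rats, and 12 of its 14 genes fell, where 6.95% of all genes did. In knockout rats it averaged 10.69 to 11.57 on ZS and 9.27 to 10.82 on ZD arrays, and 7 of 14 fell, where 12.0% of all genes did. In unedited rats 2 of 10 endothelial genes rose, with array means of the whole list at 6.01 to 6.35 on ZS and 6.32 to 6.68 on ZD, where 6.94% of all genes rose. Of 12 macrophage genes 1 rose (list means 5.78 to 6.18 and 6.21 to 6.43), of 6 pericyte genes 1 (5.84 to 6.26 and 5.84 to 6.16) and of 8 adipocyte genes 2 (4.68 to 5.02 and 5.08 to 5.35). The macrophage count (8.3%) was near the 6.94% of all genes that rose, and the pericyte count rested on 1 gene. The smooth muscle genes Myh11, Acta2 and Actg2 were at 7.02 or above on each array. In knockout rats 7 of 12 macrophage genes (list means 6.62 to 8.63 on ZS and 6.22 to 6.92 on ZD arrays), 4 of 10 endothelial genes (7.42 to 8.25 and 6.81 to 7.46) and 3 of 6 pericyte genes (6.90 to 7.54 and 6.4 to 6.86) also fell, and without array 32 it was 3 smooth muscle, 3 macrophage, 2 endothelial and 1 pericyte gene, where 6.56% of all genes fell. Basal keratinocyte genes had list means of 11.40 to 11.71 on ZS and 11.08 to 11.49 on ZD knockout arrays, and 1 of 9 fell. In unedited rats 2 of those 9 fell, at list means of 11.06 to 11.30 and 10.86 to 11.46. Suprabasal keratinocyte genes had list means of 10.68 to 11.29 on ZS and 10.94 to 12.20 on ZD knockout arrays. Of these, 1 of 8 rose (12.5%), where 9.47% of all genes rose. In knockout rats 1 of 8 adipocyte and 1 of 14 skeletal muscle genes fell (12.5% and 7.1%), where 12.0% of all genes fell. These counts, and those of the basal (11.1%) and suprabasal lists in knockout rats, are near the shares of all genes. What they were without array 32 is not given here. No Schwann cell gene was called for diet in either genotype, and no skeletal muscle or suprabasal gene in unedited rats. The part of the other lists in the collagen result was not tested. For smooth muscle, a fit with its per-array level as a covariate called 3 of 39 members in knockout rats, where 5.91% of all genes were called lower. They were Bgn at -0.38, Col5a1 at -0.67 and Col6a2 at -1.21. In the covariate fit Lox was at 2.26 (SE 0.35) for diet in unedited rats and -1.82 (SE 0.38) for the interaction, both called. That covariate itself differed between diets, so the fit also removes diet effects that run with it.

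**Figure D3:**
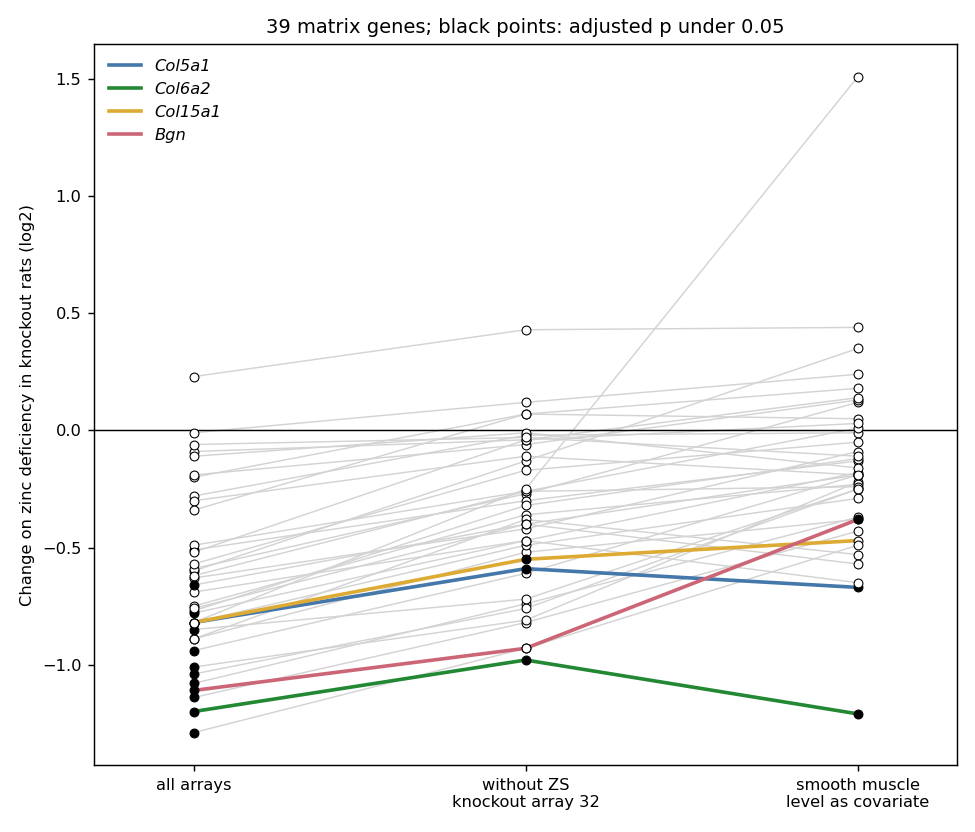
Difference between ZD and ZS knockout rats (log2, vertical axis) for 39 matrix genes with all arrays, without ZS knockout array 32, and after adjusting for the smooth muscle level of the array; each line is 1 gene and black points passed an adjusted p of 0.05. The number of black points goes from 15 to 4 and 3, and Bgn, Col5a1 and Col6a2 are black in all 3 columns.

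Col5a1, a minor fibrillar chain that regulates the start of fibre assembly, was the fibrillar collagen with the smallest spread. ZS knockout values were 7.54, 7.82, 8.66 and 7.93, and ZD knockout values ran from 6.94 through a median of 7.22 to 7.31. The groups did not overlap, as was the case for 3 members in all (Col5a1, Col6a2 and Bgn) and 14.3% of genes. The difference was -0.82 (SE 0.15), a 1.76-fold fall, with an adjusted p of 0.000357 by limma, and it stayed called without array 32 at -0.59. In unedited rats Col5a1 was 7.0, 6.84, 6.85, 7.07 and 6.80 on ZS and 6.99, 6.63, 6.86, 6.80 and 6.55 on ZD. Those ranges overlapped, with a difference of -0.14 (95% interval -0.44 to 0.15). The interaction for Col5a1 was -0.67 (SE 0.21, adjusted p = 0.0435 by limma), called in 8 of 20 fits that left out 1 array and not without array 32 (-0.45, adjusted p = 0.125 by limma). A second Col5a1 probe set was called in knockout rats at -0.90 (SE 0.24), and its interaction of -0.62 was not called (adjusted p = 0.266 by limma over all probe sets).

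Col1a2 and Col3a1, which with Col1a1 build the common type I and type III fibres, overlapped between the knockout diets. Col1a2 values were 10.32, 11.21, 12.42 and 11.62 in ZS knockout rats and had a lowest of 9.48, a median of 10.28 and a highest of 11.02 in ZD knockout rats. The ranges overlapped through ZS array 30. The difference was -1.08 (SE 0.37, adjusted p = 0.0354 by limma), and that of Col3a1 was -0.94 (SE 0.34, adjusted p = 0.0485 by limma). Col5a2 was also called at -0.82 (SE 0.27), while Col1a1, at -0.89 (SE 0.34, adjusted p = 0.0639 by limma), was not. Of these, none was called without array 32. In unedited rats the 5 fibrillar collagens lay between -0.68 (Col1a2) and 0.31 (Col5a2), with none called.

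**Figure D4:**
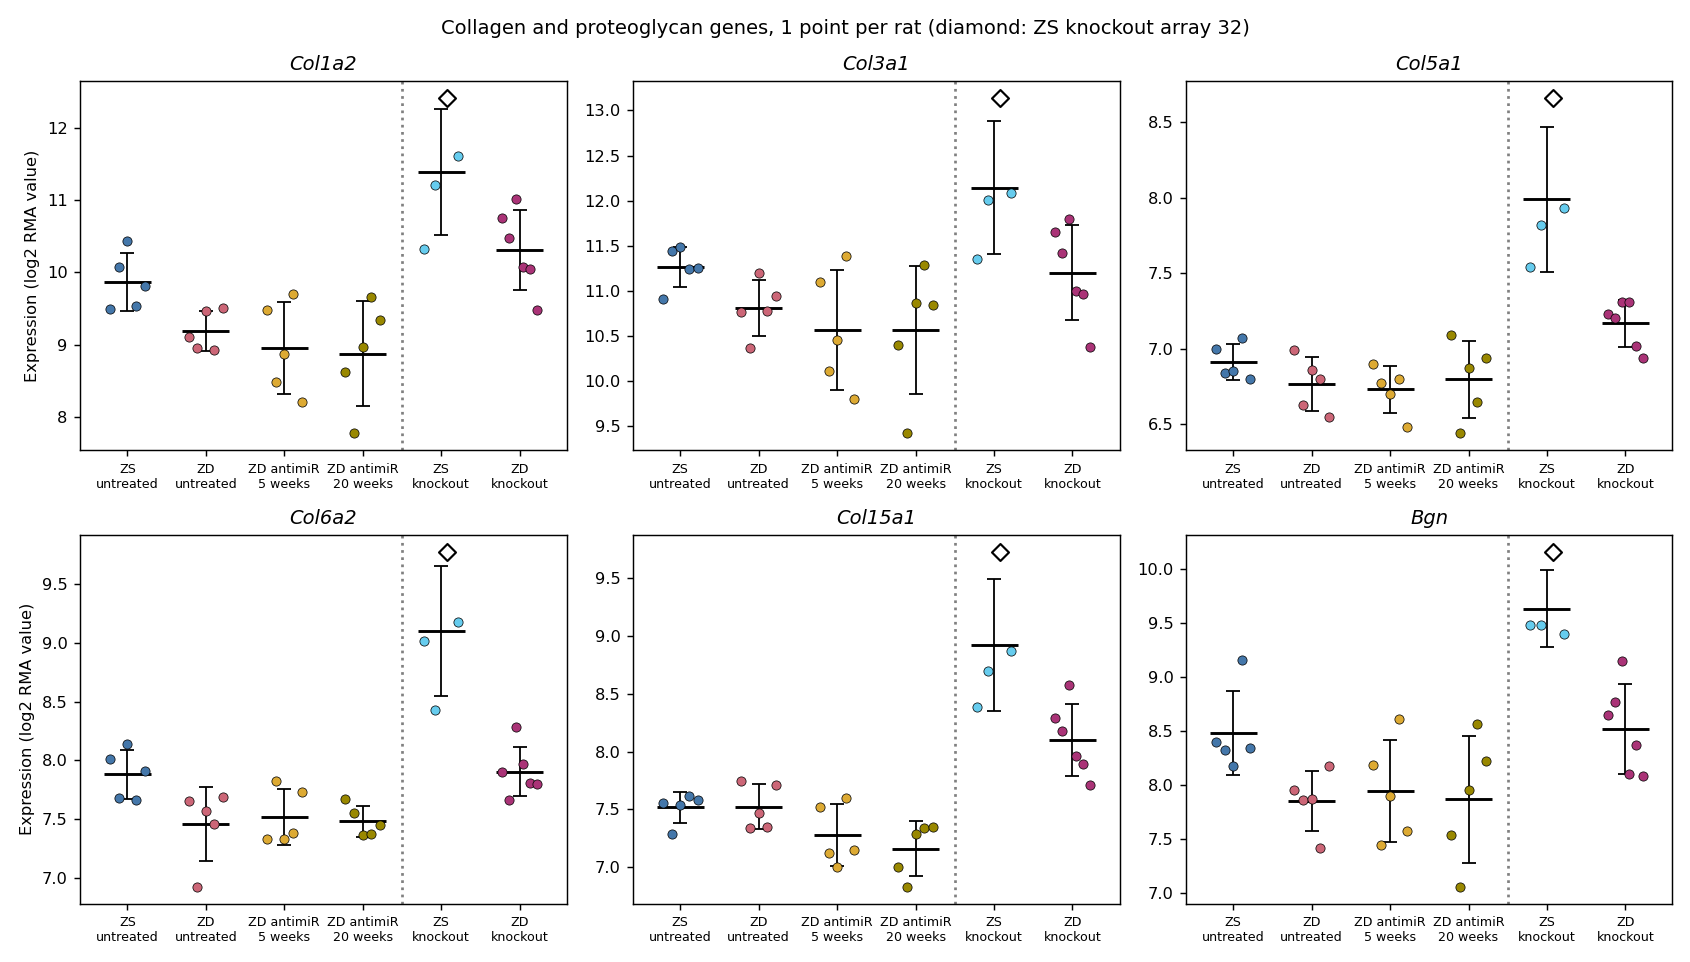
Log2 RMA values (vertical axis) of 5 collagens and Bgn in the 6 groups, 1 point per rat, with group mean and SD; the dotted line separates the array sets and the open diamond is ZS knockout array 32. Array 32 is the highest point in each panel, and Col5a1, Col6a2 and Bgn do not overlap between the knockout groups.

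Type VI collagen (Col6a2 lies at chr20:12021182-12048932 in GRCr8), a beaded filament network around cells built from 3 chains, fell in knockout rats in all 3 measured genes. Col6a2 had ZS knockout values of 9.02, 8.43, 9.78 and 9.18 and ZD knockout values from 7.66 through a median of 7.85 to 8.28. The groups did not overlap, and the difference of -1.2 (SE 0.18, a 2.3-fold fall, adjusted p = 4.74e-05 by limma) had the smallest adjusted p of the 39 in that comparison. A second Col6a2 probe set ran the other way in knockout rats, at 0.26 (SE 0.10, adjusted p = 0.0573 by limma over all probe sets), and its interaction of 0.72 (SE 0.14, adjusted p = 0.00302 by limma over all probe sets) had the opposite sign to the -0.78 (SE 0.25, adjusted p = 0.0536 by limma) of the probe set used. Col6a1 and Col6a3 differed by -1.14 (SE 0.29) and -1.04 (SE 0.31), both called and both lost without array 32. In unedited rats the same 3 genes lay at -0.68, -0.42 and -0.70 for Col6a1, Col6a2 and Col6a3, none called (adjusted p = 0.107, 0.111 and 0.131 by limma). Col6a1 was 8.16, 8.25, 8.11, 8.36 and 8.08 on ZS and 7.53, 7.14, 7.64, 7.34 and 7.89 on ZD, and Col6a3 also showed no overlap between these groups. With only the untreated groups in the fit, Col6a1, Col6a3, Col1a2, Dcn and Fbn1 were called beside Lox, where 12.2% of all genes were called. Groups did not overlap for 4 members in this comparison (Lox, Col6a1, Col6a3 and Dcn), where 11.4% of all genes showed none. Col12a1 and Col14a1, which coat fibril surfaces, were not called in knockout rats, at -0.28 and -0.60.

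In the basement membrane, Col4a1, Col15a1 and Lamc1 fell in knockout rats, at -1.01 (SE 0.33), -0.82 (SE 0.19) and -0.51 (SE 0.18). Without array 32, Col4a1 at -0.81 and Lamc1 at -0.30 were not called, and each of these 2 was called in 5 of 10 fits that left out 1 knockout array. Col15a1 (chr5:66297546-66403172 in GRCr8), a collagen of the outer basement membrane zone, had values of 8.39, 8.70, 9.73 and 8.87 in ZS knockout rats and 7.71 to 8.58, with a median of 8.07, in ZD knockout rats. The ranges overlapped between 8.39 and 8.58, and the call held without array 32 at -0.55 (adjusted p = 0.0294 by limma). In unedited rats Col15a1 was at 7.52 ± 0.13 (SD, n = 5) on ZS and 7.52 ± 0.19 (SD, n = 5) on ZD, a difference of 0.01 (95% interval -0.37 to 0.39). Its interaction was -0.83 (SE 0.26, adjusted p = 0.0485 by limma), called in 3 of 20 fits that left out 1 array and not without array 32 (-0.56). A second Col15a1 probe set gave an interaction of -1.09 (SE 0.32, adjusted p = 0.0363 by limma over all probe sets).

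The interaction called 3 members, Lox, Col5a1 and Col15a1, all more negative in knockout rats, where 8.39% of all genes were called (4.61% lower). That count, 7.7% of the 39, is near the 8.39%. Without array 32 only Lox was called, where 4.33% of all genes were. With the smooth muscle covariate 11 members were called, where 9.59% of all genes were. Set side by side, 23 of 39 genes were lower on ZD in both genotypes, and 15 were higher in unedited and lower in knockout rats. Col4a1 belonged to the latter, at 0.29 in unedited and -1.01 in knockout rats, with an interaction of -1.30 (SE 0.46, adjusted p = 0.0749 by limma). Its head-to-head partner Col4a2 was at 0.11 and -0.63, neither called. The other basement membrane genes were not called in either genotype. They were Col18a1, Nid1, Lama2 and Lamb1, at -0.30, -0.59, -0.75 and -0.01 in knockout rats and 0.32, -0.27, -0.17 and 0.02 in unedited rats.

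**Figure D5:**
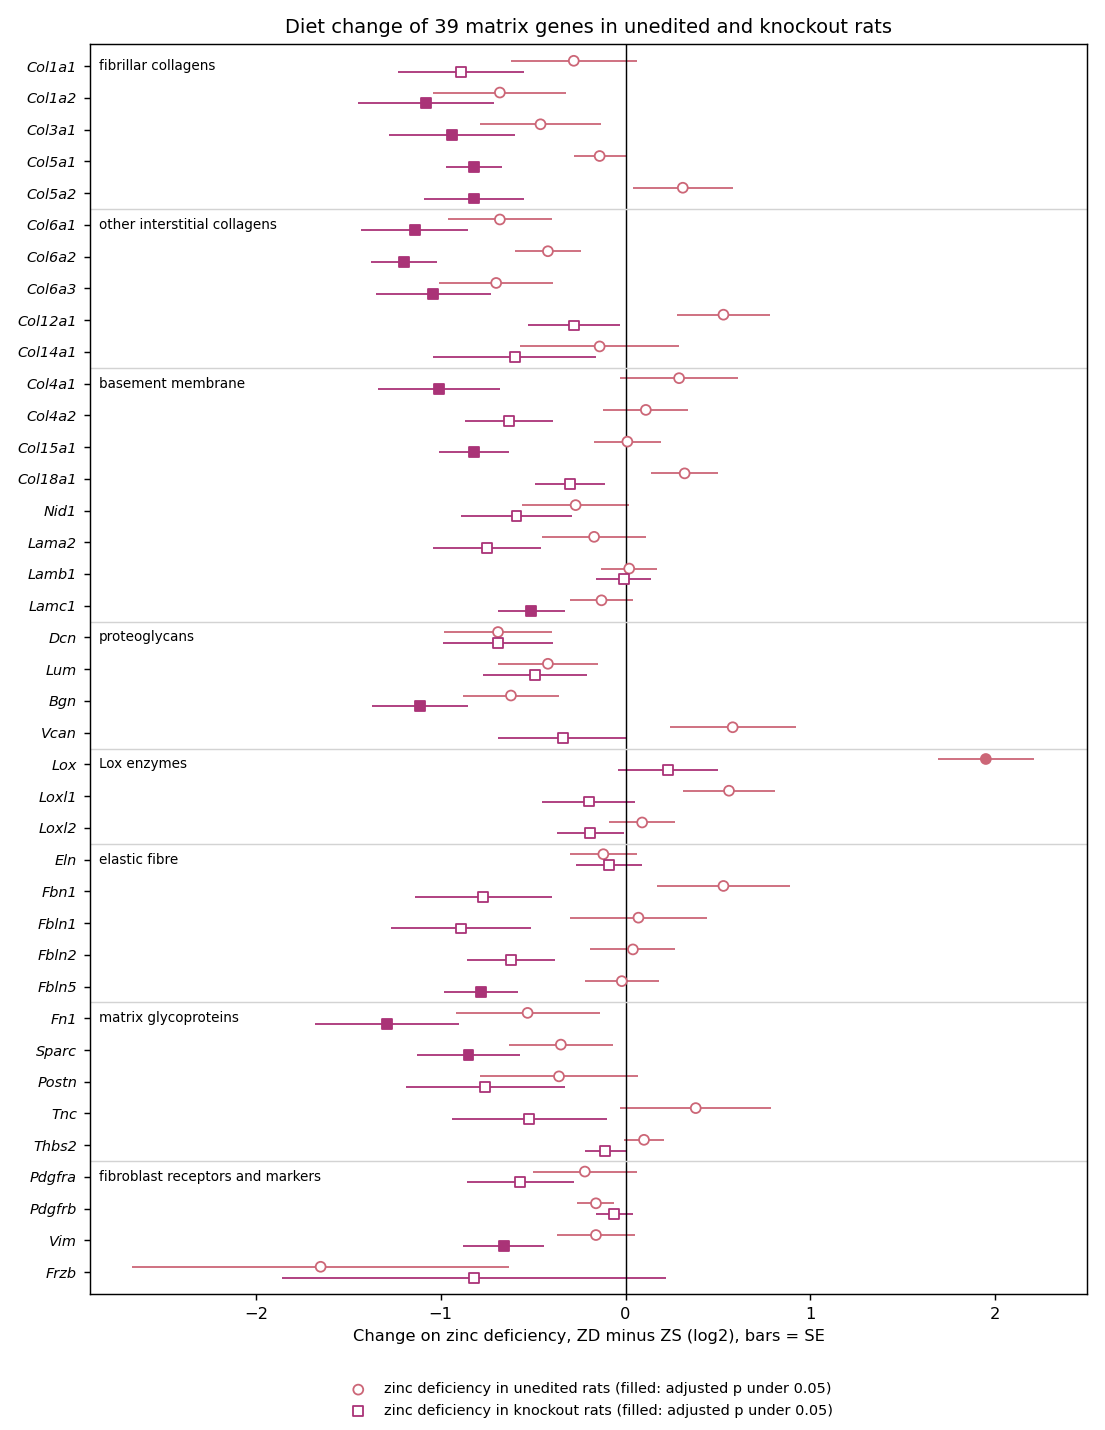
Difference between zinc-deficient and zinc-sufficient rats (log2, horizontal axis, bars are SE) for 39 matrix genes by class, as circles for unedited and squares for knockout rats; filled symbols passed an adjusted p of 0.05. Lox is the single filled circle at 1.95, and 15 squares are filled, all left of 0.

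Among the proteoglycans, Bgn (biglycan, chrX:156348633-156360797 in GRCr8) fell in knockout rats. Its values were 9.48, 9.48, 10.16 and 9.40 on ZS and ran from 8.09 through a median of 8.51 to 9.15 on ZD. The groups did not overlap, and the difference was -1.11 (SE 0.26, a 2.16-fold fall, adjusted p = 0.00401 by limma), with -0.93 without array 32. Bgn was one of 4 members, with Col15a1, Col5a1 and Col6a2, called in all 10 fits that left out 1 knockout array. In unedited rats Bgn was at 8.48 ± 0.39 (SD, n = 5) on ZS and 7.86 ± 0.28 (SD, n = 5) on ZD, and the difference of -0.62 was not called (adjusted p = 0.11 by limma). Dcn (decorin) had nearly equal differences in both genotypes, -0.69 in unedited (SE 0.29) and -0.69 in knockout rats (SE 0.30), neither called. Unedited Dcn values were 11.75, 11.81, 11.54, 11.40 and 12.03 on ZS and 11.07, 11.02, 11.20, 10.81 and 11.00 on ZD, without overlap. Lum (lumican) was at -0.42 and -0.49, and Vcan (versican, a large proteoglycan of provisional matrix) at 0.58 and -0.34, in the same order and none called.

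Of the elastic fibre genes, Fbln5, which tethers elastin to cells, fell in knockout rats by 0.78 log2 units (SE 0.20, adjusted p = 0.00665 by limma) and stood at -0.02 in unedited rats. Without array 32 Fbln5 was at -0.47 and not called (adjusted p = 0.0656 by limma). The fibrillin Fbn1 was at 0.53 in unedited and -0.77 in knockout rats, Fbln1 at 0.07 and -0.89, and Fbln2 at 0.04 and -0.62, with none called. Eln itself had low signal, between 4.22 and 5.23 on unedited arrays, and differed by -0.12 and -0.09. For Fbln1, Eln and the receptor gene Pdgfrb a second probe set differed from the one used, with knockout diet differences of -1.22, -0.42 and -0.90 (adjusted p = 0.000939, 0.0379 and 0.00159 by limma over all probe sets) against -0.89, -0.09 and -0.06. The interactions of those second probe sets were -1.58, -0.66 and -1.01, all called, and those of the probe sets used were -0.97, 0.03 and 0.10, none called. The second probe sets were not fitted without array 32.

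Fn1 and Sparc were the matrix glycoproteins that fell in knockout rats. Fn1, the fibronectin gene, had values of 9.95, 10.97, 12.01 and 10.80 on ZS and of 9.08 to 10.49, with a median of 9.53, on ZD. The ranges overlapped through ZS array 30, and the difference of -1.29 (SE 0.39, adjusted p = 0.0204 by limma) was the most negative of the 39 and was lost without array 32 (-0.93). Sparc, a collagen-binding protein, differed by -0.85 (SE 0.28, adjusted p = 0.0332 by limma), was called in 4 of 10 fits that left out 1 knockout array and was at -0.72, not called, without array 32. Postn, Tnc and Thbs2 were not called, at -0.76, -0.52 and -0.11. In unedited rats the 5 lay between -0.53 (Fn1) and 0.38 (Tnc), none called.

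Vim, an intermediate filament gene of mesenchymal cells, fell in knockout rats by 0.66 log2 units (SE 0.22, adjusted p = 0.0331 by limma), and was at -0.16 in unedited rats. Without array 32 it was at -0.40 and not called (adjusted p = 0.24 by limma). Pdgfra, the receptor that marks most fibroblasts, differed by -0.57 (95% interval -1.15 to 0.02) in knockout and -0.22 (95% interval -0.79 to 0.36) in unedited rats. Frzb, a secreted Wnt antagonist, had the widest spread of the set. ZS untreated values were 3.80, 6.43, 4.20, 8.44 and 3.39, ZD untreated values 3.28, 3.40, 3.08, 4.14 and 4.11, and ZS knockout values 4.80, 8.56, 9.14 and 7.20, and ZD knockout values ran from 4.76 through a median of 6.70 to 8.55. The high ZS untreated values came from arrays 17 and 19, and the Frzb diet differences of -1.65 (SE 1.02) and -0.82 (SE 1.04) were not called.

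Without a covariate, AntimiR-31 left no member called against untreated ZD at 5 or 20 weeks, where 0.0% and 0.647% of all genes were called by limma. At an unadjusted p under 0.05 there were 3 of 39 members at 5 weeks, with 1021 of 14217 genes, and 5 at 20 weeks, with 2108 of 14217. Both counts are near the share of all genes. The 3 were Lox, Vcan and Tnc, and the 5 added Col12a1 and Col4a1. Vcan values were 5.48, 5.29, 6.15, 6.18 and 5.58 in ZD untreated rats, 4.99, 4.97, 5.03, 5.06 and 4.73 at 5 weeks and 4.67, 4.10, 5.28, 4.53 and 4.82 at 20 weeks. Each treated Vcan value lay below the lowest untreated ZD value, and Vcan was the only member without overlap in either comparison, where 1.12% and 2.6% of genes showed none. Its differences were -0.78 (95% interval -1.47 to -0.08) and -1.05 (95% interval -1.75 to -0.36), with adjusted p = 0.614 and 0.134 by limma. Tnc (tenascin-C, a glycoprotein of remodelling matrix) differed by -1.09 (SE 0.41) and -1.20 (SE 0.41), with ZD array 12 at 8.44 and the other ZD arrays at 5.85 to 7.15. Col12a1 and Col4a1 differed at 20 weeks by -0.67 (SE 0.25) and -0.84 (SE 0.32). These comparisons and the diet comparison share the 5 untreated ZD arrays, in which Lox, Vcan, Tnc, Col12a1 and Col4a1 stood 1.95, 0.58, 0.38, 0.53 and 0.29 above ZS. Over the 39 genes the median difference from untreated ZD was -0.17 at 5 and -0.22 at 20 weeks. Of the 39, 28 and 30 were below 0, against 48.5% and 51.4% of all genes. With the smooth muscle covariate 3 members were called at 20 weeks, where 0.19% of all genes were, and 0 at 5 weeks.

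Against ZS, the antimiR groups had median differences of -0.19 at 5 and -0.37 at 20 weeks over the 39 genes, with 31 and 33 below 0, against 47.7% and 51.1% of all genes. The fibrillar collagens lay lower in both, from -0.92 (Col1a2) to -0.09 (Col5a2) at 5 weeks and from -0.99 (Col1a2) to -0.11 (Col5a1) at 20 weeks, none called. Col1a2 was 9.48, 8.48, 8.87, 9.70 and 8.21 at 5 weeks and 8.62, 7.77, 8.97, 9.66 and 9.34 at 20 weeks. The lowest of these, 7.77, was array 2, the array that was lowest of its group for 31 genes.

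Enzymes and chaperones that prepare collagen in the endoplasmic reticulum fell in the same knockout comparison, in 8 of 17 measured genes, where 12.0% of all genes fell, with none higher. Without array 32 it was 6, where 6.56% of all genes fell. Those with the smallest adjusted p were the prolyl hydroxylase P4ha2 at -0.78 (SE 0.12), the lysyl hydroxylase Plod3 at -0.54 (SE 0.09), the prolyl 3-hydroxylases P3h1 at -0.46 (SE 0.09) and P3h3 at -0.82 (SE 0.18), the collagen chaperone Serpinh1 at -0.73 (SE 0.16) and Plod1 at -0.65 (SE 0.16). Each of these 6 was called without array 32 and in the other 9 fits that left out 1 array. In unedited rats 0 of the 17 were called by limma, where 13.9% of all genes were. At an unadjusted p under 0.05 there were 7 of the 17, with 3987 of 14217 genes. The interaction called P4ha2 at -0.53 (SE 0.16) and Plod1 at -0.84 (SE 0.22), and neither was called without array 32 (-0.43 and -0.75, adjusted p = 0.122 and 0.0559 by limma). The P4ha2 interaction was called in 9 of 20 fits that left out 1 array. Against ZS, Serpinh1 was at -0.71 after 5 weeks and -0.58 after 20 weeks of antimiR, P3h1 at -0.33 after 20 weeks, and the procollagen protease Bmp1 at 0.59 after 5 weeks, all called by limma. With 1 array left out, Serpinh1 at 5 weeks was called in 10 of 10 fits, Serpinh1 and P3h1 at 20 weeks in 5 and 4 of 10, and Bmp1 in 6 of 10, and those last 3 were not called with only the groups compared in the fit. Of 5 matrix enzymes known to respond to low oxygen, Lox rose in unedited rats and P4ha2 and Plod2 (-0.88) fell in knockout rats, where 12.0% of all genes fell. Plod2 was called in 5 of 10 fits that left out 1 knockout array and was at -0.61, not called, without array 32.

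Among 8 other cross-linking enzymes and leucine-rich regulators, the transglutaminase Tgm2 and the proteoglycan Prelp fell in both genotypes. Of all genes, 6.95% fell in unedited and 12.0% in knockout rats. Tgm2 was at -1.04 (SE 0.33) in unedited and -1.24 (SE 0.33) in knockout rats, and Prelp at -0.79 (SE 0.23) and -1.30 (SE 0.23). Loxl3 also fell in knockout rats, at -0.57 (SE 0.18), and without array 32 Prelp alone was called there, where 6.56% of all genes fell. In unedited rats Tgm2 was called in 5 and Prelp in 8 of 10 fits that left out 1 array. Of 15 TGF-beta pathway genes, 1 rose and 1 fell in unedited rats (13.3% called), where 13.9% of all genes were called. In knockout rats 3 fell (20.0% called), where 21.4% of all genes were called in either direction. These counts are near the shares of all genes. Ltbp1, a carrier that stores latent TGF-beta in matrix, rose in unedited rats by 0.99 (SE 0.23). Ltbp4, a related carrier of elastic fibres, fell in both genotypes, at -0.71 (SE 0.14) and -1.0 (SE 0.14). The ligands Tgfb3 and Tgfb1 fell in knockout rats, at -1.0 (SE 0.24) and -0.35 (SE 0.11), with interactions of -1.18 and -0.50, both called with all arrays and neither without array 32 (-0.96 and -0.42). The Tgfb1 interaction was called in 7 of 20 fits that left out 1 array. Without array 32, Ltbp4 and Tgfb3 were still called for diet in knockout rats and Tgfb1 was not. Of 19 other fibroblast genes, 10 fell in knockout rats, where 12.0% of all genes fell, including the transcription factor genes Twist2 (-0.98, SE 0.15), Prrx1 (-0.53, SE 0.15) and Twist1 (-0.52, SE 0.17), and without array 32 it was Twist2 alone, where 6.56% of all genes fell. In unedited rats 3 of the 19 fell, where 6.95% of all genes did: Acta2 (-1.27, SE 0.33), Gsn (-0.55, SE 0.12) and Igfbp6 (-1.34, SE 0.25). With smooth muscle as a covariate Acta2 and Tgm2 turned to 0.14 and 0.31 in unedited rats. Prelp (at -0.01), Gsn, Igfbp6 and Ltbp4 also lost their calls there, where 0.9% of all genes were called. Acta2 is itself among the genes averaged into that covariate, so its adjusted value cannot show whether it fell apart from smooth muscle.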

How the data were processed

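Oesophageal RNA was measured on Affymetrix rat arrays, and the authors deposited log2 expression values per probe set, made with Affymetrix Expression Console and RMA per the submitters' processing notes (versions not given in the sources used here). Array medians formed 2 sets, 20 unedited arrays (5.37 to 5.45) and 10 knockout arrays (5.81 to 5.93), taken as normalized separately. Of 31099 probe sets, 20826 carried 1 symbol in the platform annotation, 436 several, 9780 none that was used and 57 were controls. The probe set with the highest mean represented each of 14217 genes; 22 members had more than 1. Groups came from the sample titles. One limma 3.58.1 model (R 4.3.3) held all 30 arrays with 1 coefficient per group, and p-values were adjusted by Benjamini-Hochberg over all genes, with a threshold of 0.05. Scripts were tested on simulated data. Sample numbers are unique to a rat, so nothing was paired. The labels do not say how rats shared cages or processing days, so p-values measure the spread between these rats.

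Members and gene lists were chosen with earlier results of these data known. Any member may be named; of each pathway list the up to 6 called genes with the smallest adjusted p per comparison, and of each marker list its first 3 genes. Alternatives were 2 quantile normalizations, centring on medians, dropping the 30% of genes with the lowest means, trended and robust moderation, weighting of arrays, a fit of only the groups compared, averaging over probe sets, a smooth muscle covariate and leaving out each array. The number of arrays limits the precision. Scanner files were not used, so no background correction or slide block was tried.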

Additional observations from a re-analysis of the deposited data

Results flagged for a closer look

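Diet effects differed between knockout and unedited rats, by the interaction test in limma, for Lox (-1.72), Col15a1 (-0.83) and Col5a1 (-0.67). Of 20 fits that left out 1 array, Lox was called in 20, Col5a1 in 8 and Col15a1 in 3. Neither collagen was called without array 32. The 3 are 7.7% of the 39, near the 8.39% of all genes called.

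Single values stood far from the rest of their group, by Dixon's test, in 15 of 234 groups, where chance flags about 5% of groups. In ZS knockout rats array 32 was high for Lamc1 (9.88), Bgn (10.16) and Tnc (8.88). In ZD knockout rats array 39 was low for Col1a1 (7.4) and Lox (4.91), and array 36 was high for Loxl2 (5.71). In the 20-week antimiR group array 2 was low for Col6a3 (6.8), Dcn (10.07) and Fbn1 (6.75), and in the 5-week group array 10 was low for Vcan (4.73). In ZS untreated rats array 17 was low for Col15a1 (7.29), array 19 high for Bgn (9.16) and array 20 high for Eln (5.23). In ZD untreated rats array 14 was low for Lox (5.82) and array 15 high for Vim (10.63).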

How the results depend on the processing

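The Lox diet effect in unedited rats, its interaction and its 5-week difference from ZS kept their direction and call under all alternatives. With arrays left out in turn, members called ranged from 4 to 22 (knockout diet), 1 to 6 (interaction), 1 to 3 (5 weeks against ZS) and 0 to 1 (20 weeks against ZS). The share of all genes called also moved, from 21.4% (knockout diet) and 8.39% (interaction) to 11.0% and 4.33% without array 32. For fits against ZS with an array left out, no share is given here. With only the groups compared in the fit, the counts, each with the share of all genes called, were 6 (unedited diet, 12.2%), 9 (knockout diet, 14.9%), 1 (interaction, 7.03%), 2 (5 weeks against ZS, 7.78%) and 0 (20 weeks against ZS, 0.985%). With the smooth muscle covariate they were 3 (unedited diet, 0.9%), 3 (knockout diet, 10.3%), 11 (interaction, 9.59%) and 3 (20 weeks against untreated ZD, 0.19%). Array weights gave 2 for unedited diet (17.6%) and 7 for 5 weeks against ZS (15.0%), the mean of probe sets 2 for unedited diet (13.3%), and median centring 1 for the interaction (7.20%). The causes were not tested. Acta2 and Tgm2 turned sign in unedited rats with the covariate, to 0.14 and 0.31, and Acta2 is among the genes averaged into it. Of the single-gene results under alternatives, 1043 kept direction and call, 253 kept direction and lost the call and 2 turned. No paired analysis was possible because sample numbers are unique to each rat. Low signal limits Loxl2, Frzb, Thbs2, Eln, Fbln5 and Vcan, whose median percentile among genes was 13.8 to 29.6, and Lox in ZS untreated rats (3.81 to 4.67), the base of its fold. It also limits Twist1, Twist2, Prrx1, Loxl3 and Tgfb1, which were among the 30% of genes with the lowest means. The 4 ZS knockout rats, with array 32 above the rest, limit the knockout comparison.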
